A study of Mus musculus with 6 samples.

Results

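The genes described here encode the Eph receptors and ephrins, the semaphorins with their plexin and neuropilin receptors, and the Slit ligands with their Robo receptors. The families were picked with earlier results of these data known, and within them members were taken by gene symbol, whatever their values: every Epha, Ephb, Efna, Efnb, Sema3 to Sema7, Plxna to Plxnd, Slit and Robo gene, with Nrp1 and Nrp2. The mouse annotation holds 60 such genes, and 59 of them had a row with a single symbol on the array, among 19938 genes in all. Ephb2 was not analysed here. RNA was taken from mouse embryonic intestine at E14.5, ahead of villus formation, 1.5 cm from the cecum. The Klf5-deleted group carried the genotype Klf5D/D, and the control group Klf5wt/wtShhEGFP/Cre+, wild type for Klf5 with the Cre allele. Each group held 3 arrays, each from a pool of 2 intestines of a mixed strain that is part C57Bl/6. Shh is transcribed in gut epithelium, so a Cre allele at that locus acts in epithelial cells, whereas the arrays read RNA of the whole intestinal wall. The label Klf5D/D does not say whether those embryos also carried the Cre allele.

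These families were first known as axon guidance systems and also act between the tissue layers of developing organs. Ephrins are membrane-bound ligands of Eph receptor tyrosine kinases, and signalling runs into both of the touching cells, often ending in repulsion. Class 3 semaphorins are secreted and act through a neuropilin that binds them and a plexin that transmits the signal, while the membrane-bound semaphorins of other classes bind plexins directly. Slits are secreted proteins that act on cells carrying Robo receptors. In the gut, EphB receptors and ephrin-B ligands sort epithelial cells into compartments, and semaphorin, Slit and ephrin signals steer enteric neural crest cells, nerve fibres and vessels.

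All values are on a log2 scale, as deposited after RMA normalisation by the authors, and a difference is the Klf5-deleted mean minus the control mean on that scale. Across rows of the table, which are not independent replicates, the correlation was 0.994 to 0.997 for the 6 array pairs of the same genotype and 0.989 to 0.993 for the 9 pairs of different genotype. Klf5 had signals of 10.24, 10.49 and 10.34 in the Klf5-deleted arrays, against 11.55, 11.74 and 11.77 in the controls (log2 difference -1.33, SE 0.08, adjusted p = 9.62e-05 with limma), which left 39.8% of the control signal. The pools differed in sex as well as genotype. Xist, which is transcribed from the inactive X chromosome of females, read 5.89, 6.34 and 6.47 in the Klf5-deleted arrays, against 12.61, 12.14 and 11.93 in the controls. The male share of each pool, computed from 3 Y-linked genes, was 103%, 102% and 95% in the deleted group, against 0%, 47.1% and 40.8% in control replicates 1 to 3. By construction that scale sets the Klf5-deleted mean at 100% and the lowest array, control replicate 1, at 0%. Epithelial markers of the intestine were present and lower in the Klf5-deleted arrays: Cdx2, the intestinal identity factor, read 10.73, 11.03 and 10.96 in the Klf5-deleted arrays, against 11.50, 11.51 and 11.57 in the controls.

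In the Klf5-deleted intestine, 21 of the 59 family members rose and 5 fell, and 33 did not pass the test (limma, Benjamini-Hochberg adjusted p under 0.05 over all 19938 genes). Of all genes 17.5% passed, 8.95% higher and 8.58% lower, so that the members passed more often than the array as a whole (44.1%), with rises (35.6%) making up the excess and falls (8.47%) close to the background. The rises spread over every family: 3 EphA and 2 EphB receptors, 4 ephrins, 3 semaphorins, 4 plexins, both neuropilins, 2 Slits and Robo1. Among the 5 falls were 4 semaphorins, Sema3b, Sema4a, Sema4d and Sema4g, and the receptor gene Epha2. The rises were small, between 1.15-fold and 1.84-fold with a median of 1.30-fold, and 6 members, 3 in each direction, passed the test with a change of at least 1.5-fold. The median difference was 0.13 over the 59 members and 0.02 over all genes. By mean signal, 20 of the 21 rises and 4 of the 5 falls lay in the upper 50% of genes. There 24 of 43 members passed (55.8%), against 25.8% of all genes. In the lower 50%, 2 of 16 members passed (12.5%), near the 9.28% of all genes there. In whole tissue, fewer cells of a type and less RNA per cell cannot be told apart.

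The 3 arrays of a group did not overlap those of the other for 36 of the 59 members (61.0%), against 36.0% of all genes. For each of the 26 members that passed, the groups did not overlap. With 3 arrays per group, passing at this threshold nearly implies that, so it is a description and not further evidence. Of the 33 others, 10 did not overlap either (30.3%), and 19 differed by less than 0.1 in either direction. Over all genes, passed or not, the share without overlap was 36.0%, so a lack of overlap alone is common on these arrays. Receptors and ligands passed in like number, 13 of 28 receptor genes (46.4%) and 13 of 31 ligand genes (41.9%), against 17.5% of all genes. Of the receptor genes 12 rose and 1 fell, and of the ligand genes 9 rose and 4 fell. That contrast in direction between receptors and ligands was not tested.

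**Figure D1:**
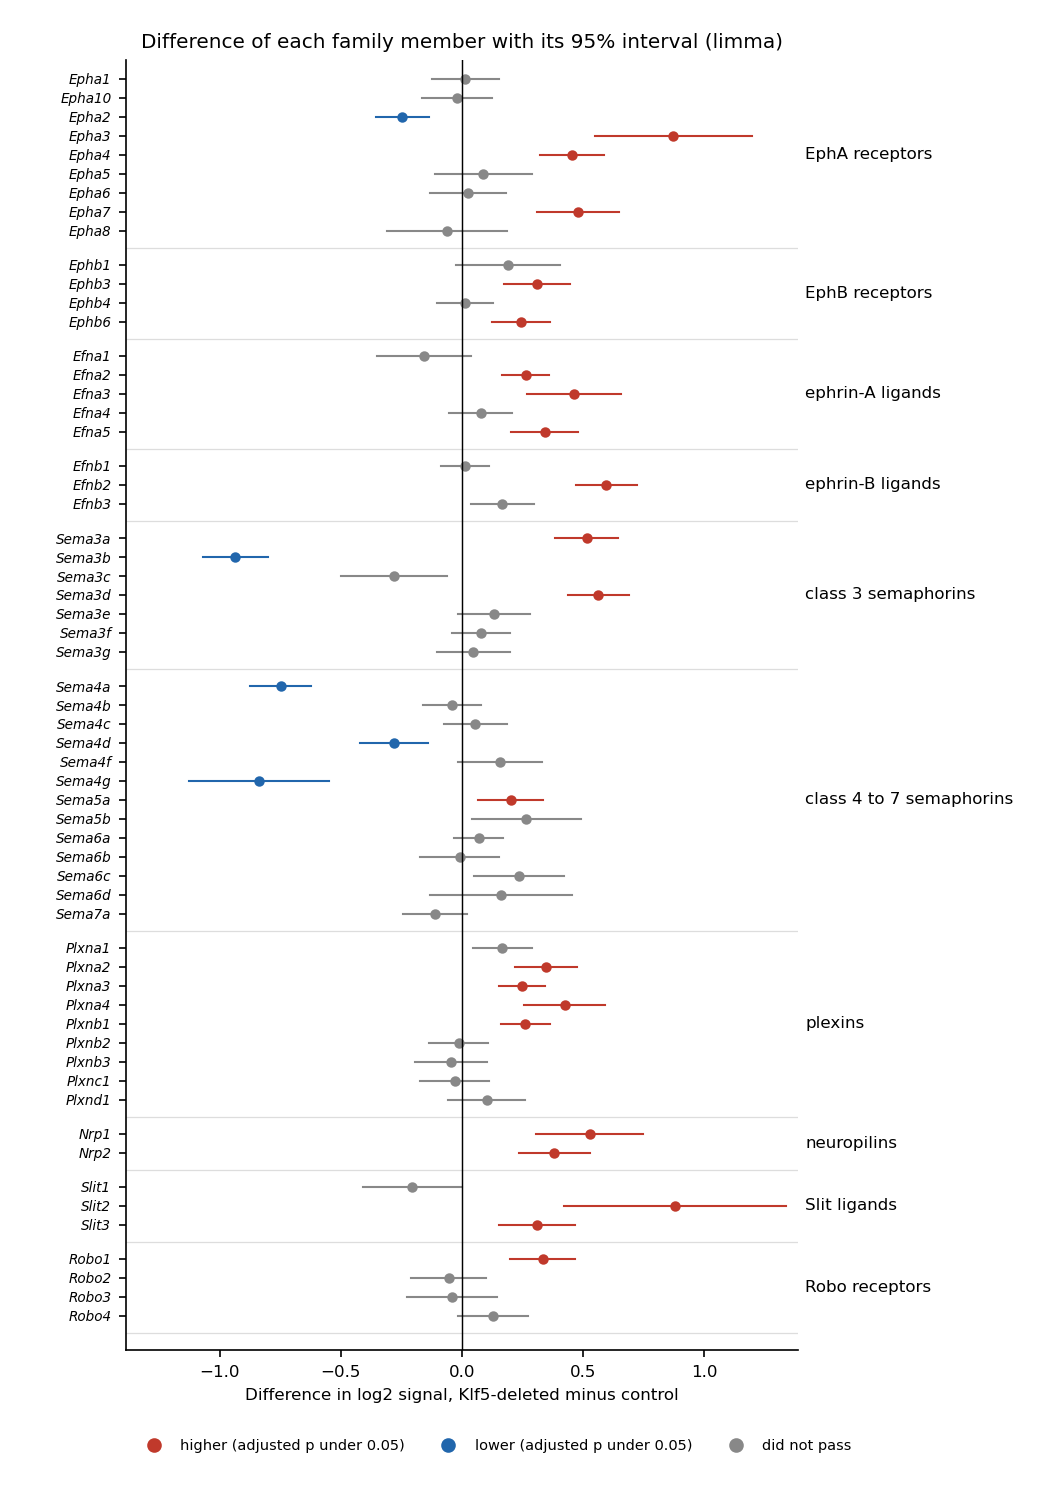
Difference in log2 signal (Klf5-deleted minus control, horizontal axis) of each of the 59 members with its 95% interval from limma, grouped by family. Red points are the 21 members that passed as higher, blue points the 5 that passed as lower and grey points the 33 that did not pass. Slit2 (0.88) and Epha3 (0.87) lie farthest right, and Sema3b (-0.94) and Sema4g (-0.84) farthest left.

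Promoter sequences are shown for the members with the largest changes that have a single promoter window in the RefSeq table, 2 that fell and 3 that rose, because Krüppel-like factors such as KLF5 bind GC-rich boxes near gene starts. Sema4g and Epha2 were the only members that fell with a single window, and Epha2 had the smallest fall (-0.25). Sema3b, with the largest fall, had no window, and Sema4a and Sema4d had several. Each window runs from 250 bases before to 50 bases after the start of the gene, on RefSeq of build GRCm38.p6, 5′ to 3′ on the strand of the gene. Capitals mark every match to CCNCNCCC, a form shared by GC boxes and CACCC boxes, on either strand, and overlapping matches run together. The windows are Sema4g (chr19:44989094-44989393, plus strand), Epha2 (chr4:141300971-141301270, plus strand), Slit2 (chr5:47982905-47983204, plus strand), Epha3 (chr16:63864126-63864425, minus strand) and Efnb2 (chr8:8661193-8661492, minus strand).
Sema4g: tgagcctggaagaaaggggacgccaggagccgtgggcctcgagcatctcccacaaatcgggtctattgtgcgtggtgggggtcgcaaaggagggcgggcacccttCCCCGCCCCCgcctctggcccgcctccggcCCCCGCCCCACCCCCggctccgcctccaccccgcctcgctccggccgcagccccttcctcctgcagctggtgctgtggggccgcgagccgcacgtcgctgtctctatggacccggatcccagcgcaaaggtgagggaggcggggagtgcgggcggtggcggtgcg
Epha2: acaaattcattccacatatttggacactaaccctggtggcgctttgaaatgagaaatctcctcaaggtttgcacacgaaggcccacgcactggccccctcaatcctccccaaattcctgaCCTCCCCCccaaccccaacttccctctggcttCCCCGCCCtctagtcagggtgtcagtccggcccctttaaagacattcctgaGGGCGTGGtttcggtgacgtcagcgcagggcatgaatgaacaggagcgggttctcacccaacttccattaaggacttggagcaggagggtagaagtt
Slit2: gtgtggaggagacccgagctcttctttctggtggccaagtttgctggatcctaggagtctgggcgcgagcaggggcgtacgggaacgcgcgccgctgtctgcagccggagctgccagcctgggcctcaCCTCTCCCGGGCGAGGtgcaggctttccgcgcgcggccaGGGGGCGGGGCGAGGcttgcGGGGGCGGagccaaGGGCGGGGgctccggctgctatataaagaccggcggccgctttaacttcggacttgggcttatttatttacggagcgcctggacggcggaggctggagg
Epha3: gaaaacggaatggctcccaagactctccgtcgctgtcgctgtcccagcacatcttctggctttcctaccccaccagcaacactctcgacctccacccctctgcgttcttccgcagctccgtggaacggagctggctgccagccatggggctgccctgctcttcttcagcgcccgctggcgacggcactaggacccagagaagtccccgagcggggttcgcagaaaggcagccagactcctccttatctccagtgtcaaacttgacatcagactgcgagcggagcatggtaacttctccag
Efnb2: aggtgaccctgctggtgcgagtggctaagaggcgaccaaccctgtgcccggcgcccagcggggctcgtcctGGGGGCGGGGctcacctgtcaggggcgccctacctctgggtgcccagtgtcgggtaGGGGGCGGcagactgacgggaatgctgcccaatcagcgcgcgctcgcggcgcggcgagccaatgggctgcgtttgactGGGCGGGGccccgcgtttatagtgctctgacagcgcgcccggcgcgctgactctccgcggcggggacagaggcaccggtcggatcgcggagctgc

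Counting overlapping matches singly, the Sema4g window held 5 matches, Epha2 3, Slit2 7, Efnb2 4 and Epha3 0. RefSeq windows were found for 52 of the 59 members, 68 windows in all. The motif was in 8 of the 9 windows of members that fell (88.9%), in 19 of the 22 windows of members that rose (86.4%) and in 32 of the 37 windows of members that did not pass (86.5%). Those windows belong to 4, 20 and 28 genes in that order, so several windows of the same gene are counted apart. The motif was in 49.5% of all 32851 windows of RefSeq. The member windows were also richer in G and C, with a median of 64.0% against 52.7% over all windows. A match is a description of the letters and not a binding site.

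Among the EphA receptors, 3 of 9 rose and 1 fell. Epha3, a receptor that binds ephrin-A ligands, read 9.99, 9.42 and 9.50 in the Klf5-deleted arrays, against 8.75, 8.72 and 8.81 in the controls (log2 difference 0.87, SE 0.14, adjusted p = 0.00560), a 1.83-fold rise. Replicate 1 of the Klf5-deleted group stood above replicates 2 and 3, and all 3 lay above every control. Epha4, a receptor for ephrins of both the A and B type, read 10.39, 10.22 and 10.32 in the Klf5-deleted arrays, against 9.90, 9.87 and 9.81 in the controls (log2 difference 0.45, SE 0.06, adjusted p = 0.00205). Epha7 read 11.18, 10.95 and 11.07 in the Klf5-deleted arrays, against 10.49, 10.60 and 10.66 in the controls (log2 difference 0.48, SE 0.07, adjusted p = 0.00455). In both genes the gap between the groups was wider than the spread within either group. Epha2, a receptor widely used by epithelia, went the other way, with 9.00, 8.96 and 8.99 in the Klf5-deleted arrays, against 9.17, 9.23 and 9.29 in the controls (log2 difference -0.25, SE 0.05, adjusted p = 0.0120). The 5 other EphA genes, Epha1, Epha5, Epha6, Epha8 and Epha10, differed by -0.06 to 0.09, their groups overlapped, and all 5 lay in the lower 50% of genes by mean signal.

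Of the 4 EphB receptors measured, 2 rose and 0 fell. Ephb3, one of the receptors that position cells along the intestinal crypt, read 10.32, 10.17 and 10.18 in the Klf5-deleted arrays, against 9.90, 9.86 and 9.98 in the controls (log2 difference 0.31, SE 0.06, adjusted p = 0.0111). Ephb6, whose kinase domain is inactive, read 8.73, 8.64 and 8.59 in the Klf5-deleted arrays, against 8.42, 8.42 and 8.38 in the controls (log2 difference 0.24, SE 0.05, adjusted p = 0.0173). Ephb6 no longer passed when control replicate 2 (0.25, adjusted p = 0.0543) or control replicate 3 (0.23, adjusted p = 0.0632) was left out. Ephb1 did not pass (difference 0.19, adjusted p = 0.217) although its groups did not overlap, with control replicate 3 lowest at 8.64. Ephb4, the vein receptor that binds ephrin-B2, read 10.91, 10.83 and 10.83 in the Klf5-deleted arrays, against 10.79, 10.85 and 10.90 in the controls. Its difference was 0.01, with a 95% interval of -0.10 to 0.13.

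Ephrin ligand genes rose in 4 of 8 cases and fell in 0. The ephrin-A ligands are held in the membrane by a lipid anchor. Efna3 read 10.63, 10.48 and 10.31 in the Klf5-deleted arrays, against 10.05, 10.04 and 9.94 in the controls (log2 difference 0.46, SE 0.08, adjusted p = 0.00890). Efna5 read 11.56, 11.40 and 11.40 in the Klf5-deleted arrays, against 11.10, 11.06 and 11.16 in the controls (log2 difference 0.34, SE 0.06, adjusted p = 0.00833), and Efna2 read 10.82, 10.80 and 10.78 in the Klf5-deleted arrays, against 10.53, 10.51 and 10.57 in the controls (log2 difference 0.26, SE 0.04, adjusted p = 0.00577). In each of these genes the lowest Klf5-deleted array lay above the highest control. Efna1, Efna3 and Efna4 are direct neighbours on chromosome 3 in the RefSeq annotation, and of the 3 only Efna3 passed: Efna1 differed by -0.16 (SE 0.08) and Efna4 by 0.08 (SE 0.06).

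The ephrin-B ligands span the membrane and can signal into their own cell. Efnb2, a marker of arteries that also acts in lymphatic and neural development, read 11.00, 10.90 and 10.86 in the Klf5-deleted arrays, against 10.29, 10.30 and 10.38 in the controls (log2 difference 0.60, SE 0.05, adjusted p = 0.000458), a 1.51-fold rise whose promoter window is printed above. This was the smallest adjusted p among the 21 members that rose. Efnb3 did not pass (0.17, SE 0.06, adjusted p = 0.0823), with groups that did not overlap. The X-linked Efnb1, the partner of EphB receptors in crypt sorting, read 10.85, 10.90 and 10.86 in the Klf5-deleted arrays, against 10.85, 10.84 and 10.87 in the controls. Its difference of 0.01 had a 95% interval of -0.09 to 0.11.

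The class 3 semaphorins moved in opposite directions, with 2 of 7 higher and 1 lower. Sema3a, the secreted ligand that repels axons through neuropilin-1, read 11.06, 10.96 and 11.00 in the Klf5-deleted arrays, against 10.51, 10.41 and 10.55 in the controls (log2 difference 0.52, SE 0.06, adjusted p = 0.00100). Sema3d, which lies next to Sema3a on chromosome 5 with no other coding gene between them, read 10.02, 9.98 and 9.89 in the Klf5-deleted arrays, against 9.46, 9.37 and 9.37 in the controls (log2 difference 0.56, SE 0.05, adjusted p = 0.000584). The 2 neighbours rose by like amounts, 1.43-fold and 1.48-fold. Sema3b, another secreted neuropilin ligand, fell to 52.3% of the control signal, the largest fall of any member. It read 8.26, 8.43 and 8.43 in the Klf5-deleted arrays, against 9.31, 9.32 and 9.30 in the controls (log2 difference -0.94, SE 0.06, adjusted p = 9.44e-05). The groups were almost a full log2 unit apart, while the 3 controls spanned 9.30 to 9.32.

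Sema3c, a secreted ligand that acts in neural crest and vessel development, did not pass, with 10.40, 10.72 and 10.72 in the Klf5-deleted arrays, against 10.82, 10.90 and 10.97 in the controls (log2 difference -0.28, SE 0.09, adjusted p = 0.0856). Its groups did not overlap, and Klf5-deleted replicate 1 was the lowest array. Sema3e, the ligand of plexin-D1, was at 0.13, SE 0.06, Sema3f at 0.08, SE 0.05 and Sema3g at 0.05, SE 0.06, and none of these 3 passed. The groups of Sema3e and Sema3f did not overlap.

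Among the 13 semaphorins of classes 4 to 7, which are bound to the membrane, 3 fell and 1 rose. Sema4a, a ligand with roles in immune cells and blood vessels, read 8.12, 8.19 and 8.08 in the Klf5-deleted arrays, against 8.91, 8.92 and 8.81 in the controls (log2 difference -0.75, SE 0.05, adjusted p = 0.000165), or 59.5% of the control signal. Sema4g, a ligand of plexin-B2, read 8.69, 9.03 and 8.99 in the Klf5-deleted arrays, against 9.56, 9.97 and 9.69 in the controls (log2 difference -0.84, SE 0.12, adjusted p = 0.00422), or 55.9% of the control signal. All 3 Klf5-deleted arrays of both genes lay below the lowest control. Sema4d, the ligand of plexin-B1, read 8.84, 9.01 and 8.90 in the Klf5-deleted arrays, against 9.15, 9.26 and 9.17 in the controls (log2 difference -0.28, SE 0.06, adjusted p = 0.0176). Its second, dimmer row differed by -0.02, and with both rows averaged Sema4d differed by -0.15 (adjusted p = 0.0996). The gene also no longer passed when Klf5-deleted replicate 3 (-0.27, adjusted p = 0.0598), control replicate 2 (-0.25, adjusted p = 0.0679) or control replicate 3 (-0.29, adjusted p = 0.0505) was left out.

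The gene that rose, Sema5a, whose product carries thrombospondin repeats, was at the edge of the threshold: it read 11.56, 11.51 and 11.41 in the Klf5-deleted arrays, against 11.23, 11.29 and 11.35 in the controls (log2 difference 0.20, SE 0.06, adjusted p = 0.0498). It no longer passed on leaving out any array but Klf5-deleted replicate 3, with differences of 0.17 to 0.23 and adjusted p values of 0.0743 to 0.134 in those 5 fits. Groups did not overlap for Sema5b (0.26, SE 0.10), Sema6c (0.24, SE 0.08) and Sema6a (0.07, SE 0.04), which did not pass. Sema4b, Sema4c, Sema4f, Sema6b, Sema6d and the lipid-anchored integrin ligand Sema7a overlapped between groups, with differences of -0.11 to 0.16. The 4 Sema4 genes tested beside Sema4a and Sema4g thus ranged from -0.28 to 0.16.

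The semaphorin receptors rose in 6 of 11 cases and fell in 0. Neuropilin genes Nrp1 and Nrp2 encode the binding subunits for class 3 semaphorins and also bind vascular endothelial growth factor. Nrp1 read 11.46, 11.13 and 11.11 in the Klf5-deleted arrays, against 10.74, 10.70 and 10.68 in the controls (log2 difference 0.53, SE 0.09, adjusted p = 0.00894). Nrp2 read 11.80, 11.67 and 11.74 in the Klf5-deleted arrays, against 11.34, 11.27 and 11.46 in the controls (log2 difference 0.38, SE 0.06, adjusted p = 0.00679). Klf5-deleted replicate 1 was again the highest array for Nrp1.

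Of the plexins that pair with neuropilins, 3 of the 4 plexin-A genes passed. Plxna4 read 10.43, 10.30 and 10.20 in the Klf5-deleted arrays, against 9.81, 9.86 and 9.97 in the controls (log2 difference 0.43, SE 0.07, adjusted p = 0.00719), and Plxna2 read 10.52, 10.39 and 10.48 in the Klf5-deleted arrays, against 10.07, 10.10 and 10.18 in the controls (log2 difference 0.35, SE 0.05, adjusted p = 0.00555). The X-linked Plxna3 read 9.62, 9.64 and 9.64 in the Klf5-deleted arrays, against 9.38, 9.40 and 9.38 in the controls (log2 difference 0.25, SE 0.04, adjusted p = 0.00630). It had little spread within either group. The fourth, Plxna1, did not pass (0.17, SE 0.05, adjusted p = 0.0710) and did not overlap between groups.

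Of the plexin-B genes, which serve class 4 semaphorins, Plxnb1 read 10.47, 10.50 and 10.44 in the Klf5-deleted arrays, against 10.22, 10.17 and 10.22 in the controls (log2 difference 0.26, SE 0.04, adjusted p = 0.00646). Plxnb1 rose while Sema4d, the gene of its ligand, fell. Plxnb2, the plexin of many epithelia, read 12.15, 12.02 and 12.09 in the Klf5-deleted arrays, against 12.05, 12.12 and 12.14 in the controls, a difference of -0.01 with a 95% interval of -0.14 to 0.11. Plxnb3, also X-linked, was at -0.05, SE 0.06, and Plxnc1, the receptor of Sema7a, at -0.03, SE 0.06. The endothelial plexin gene Plxnd1 was at 0.10, SE 0.07, and these 4 genes overlapped between groups.

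Slit2 had the largest rise of any member and the largest spread. It read 11.52, 10.80 and 10.90 in the Klf5-deleted arrays, against 10.40, 10.23 and 9.94 in the controls (log2 difference 0.88, SE 0.20, adjusted p = 0.0211), a 1.84-fold rise. The SD was 0.39 in the Klf5-deleted arrays and 0.23 in the controls, the highest of all 59 members in each group, and replicate 1 was the highest Klf5-deleted array. Slit2 no longer passed when control replicate 2 (0.90, adjusted p = 0.0639) or control replicate 3 (0.76, adjusted p = 0.0763) was left out. Slit3 read 10.58, 10.35 and 10.41 in the Klf5-deleted arrays, against 10.12, 10.10 and 10.18 in the controls (log2 difference 0.31, SE 0.07, adjusted p = 0.0191), and no longer passed when control replicate 1 (0.30, adjusted p = 0.0587) or control replicate 2 (0.29, adjusted p = 0.0725) was left out. Slit1 did not pass (-0.20, SE 0.09, adjusted p = 0.162), lay in the lower 50% of genes by signal and did not overlap between groups.

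Of the Robo receptors, Robo1 passed, with 11.94, 11.94 and 11.91 in the Klf5-deleted arrays, against 11.67, 11.49 and 11.63 in the controls (log2 difference 0.33, SE 0.06, adjusted p = 0.00778). Its direct neighbour on chromosome 16, Robo2, read 10.34, 10.33 and 10.55 in the Klf5-deleted arrays, against 10.44, 10.49 and 10.45 in the controls and overlapped between groups (-0.05, SE 0.07). Robo4, the Robo of endothelium, was at 0.13, SE 0.06 and Robo3 at -0.04, SE 0.08.

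**Figure D2:**
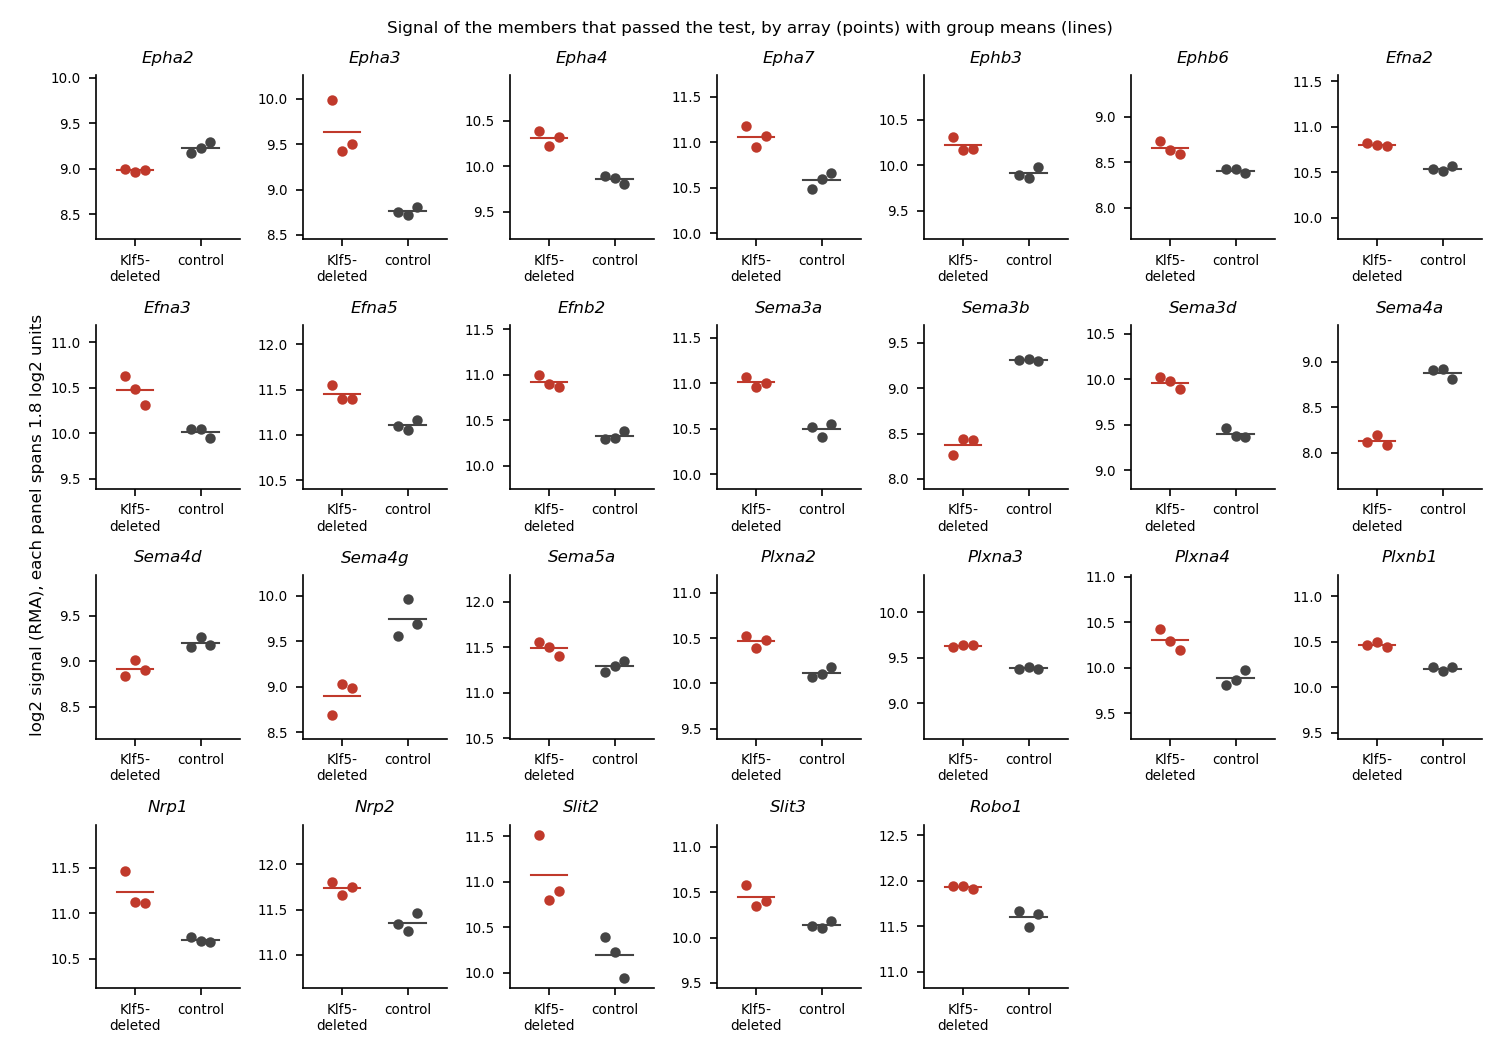
log2 signal (RMA, vertical axis) of the 26 members that passed, 1 panel per gene, with the 3 Klf5-deleted arrays in red on the left and the 3 controls in grey on the right, and lines at the group means. Each panel spans the same 1.8 log2 units. No panel shows overlap between the groups, and Klf5-deleted replicate 1, the leftmost red point of a panel, stands high for Slit2 (11.52), Epha3 (9.99) and Nrp1 (11.46).

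Klf5-deleted replicate 1 was the highest of its group for 37 of all 59 members, and for 19 of the 21 that rose. The share of all genes for which replicate 1 was highest was not counted. That array also had the lowest summed linear signal of 13 epithelial markers (18100, against 20846 and 20879 in replicates 2 and 3) and the highest of 6 mesothelial markers (10389, against 8361 and 7666). Its sum was also the highest of the group for endothelial (20028, against 16207 and 18083), fibroblast and leukocyte markers. For smooth muscle, red cell, and enteric neuron and glia markers its sum was the lowest of the group. Without it 20 members rose and 5 fell, and the differences of the 26 members had a median of 0.897 times their value over all arrays. The part of these markers in the results was not tested.

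The cell type markers moved as follows, beside 17.5% of all genes called, 8.95% higher and 8.58% lower. Of 13 epithelial markers, 13 fell, with a median difference of -0.94, and their summed linear signal was 18100 to 20879 in the deleted group, against 36202 to 37271 in the controls. Of 6 mesothelial markers 5 rose and 1, Msln, fell (-0.52, SE 0.08), with a median of 0.76 and sums of 7666 to 10389 in the Klf5-deleted arrays, against 4735 to 6326 in the controls. Of 10 measured among 13 enteric neuron and glia markers 3 rose and 0 fell, with a median of 0.18 and sums of 21203 to 23016 in the Klf5-deleted arrays, against 18205 to 18810 in the controls. Of 12 fibroblast markers 4 rose and 0 fell, with a median of 0.11 and sums of 43044 to 45689 in the Klf5-deleted arrays, against 38628 to 40611 in the controls.

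Of 11 smooth muscle markers 2 rose and 0 fell (median 0.02), with sums of 51019 to 54103 in the deleted group, against 49856 to 53014 in the controls. The share called, 18.2% for smooth muscle and also for the leukocyte markers below, was near the 17.5% of all genes. For the 13 endothelial markers limma called 0, with 1 at an unadjusted p under 0.05, and the median was 0.06. Their sums were 16207 to 20028 in the deleted group, against 16654 to 17565 in the controls. Of 11 leukocyte markers 2 fell and 0 rose (median -0.12), with sums of 4238 to 5489 in the deleted group, against 5136 to 5868 in the controls, and of 6 measured among 9 red cell markers 2 rose (median 0.38), with sums of 17245 to 23878 in the deleted group, against 10844 to 15762 in the controls. No marker had a zero signal, since RMA gives none, and 1 marker, the fibroblast gene Dpt, averaged under 6. Over all 59 members the median difference was 0.13. The part of these cell types in the members' differences was not tested.

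**Figure D3:**
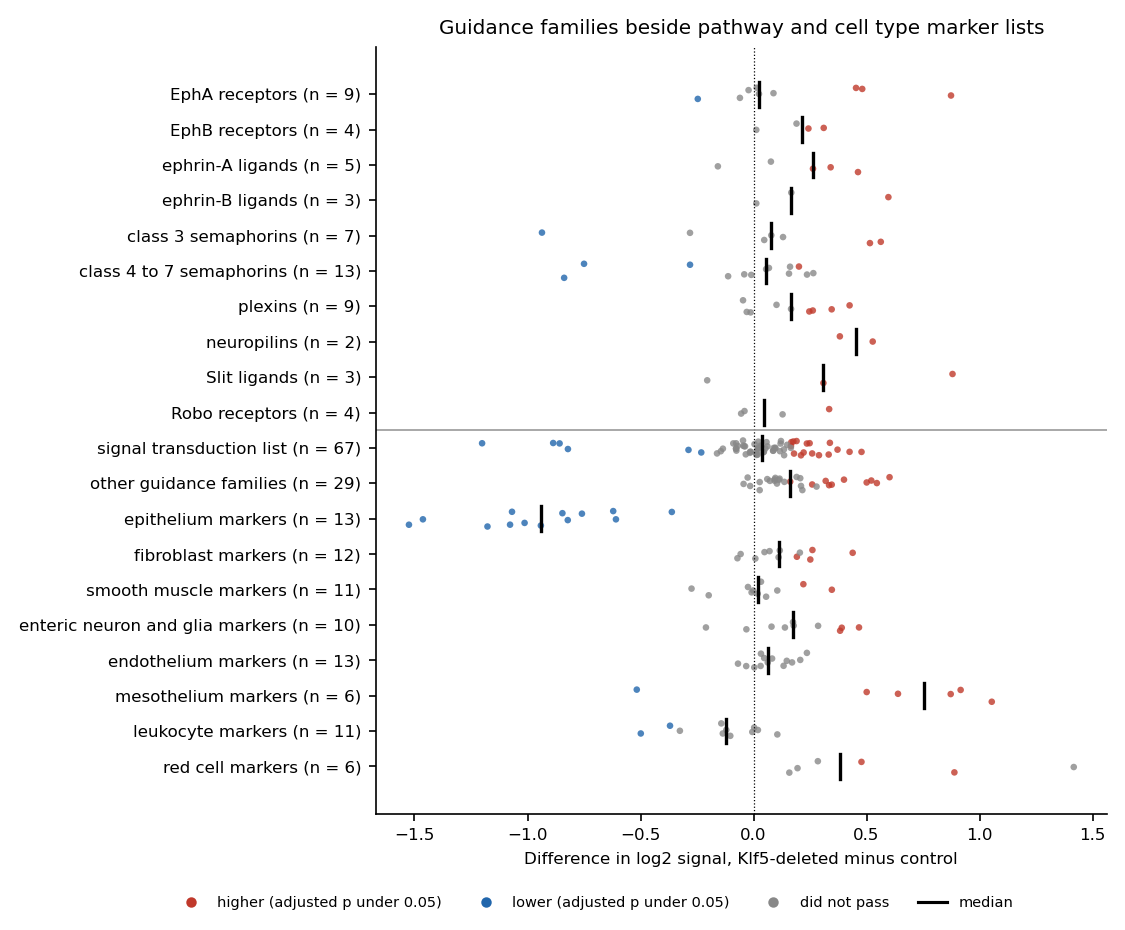
Difference in log2 signal (Klf5-deleted minus control) of each gene of the 10 families, above the line, and of the pathway and marker lists, below it, with black bars at the medians. Red and blue points passed the test as higher and lower. The 13 epithelial markers all lie left of zero, at a median of -0.94, and the mesothelial markers have a median of 0.76.

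Of 67 genes of a list of signal transduction genes, 16 rose, 6 fell and 45 did not pass, with a median difference of 0.04. The share called was 32.8%, against 17.5% of all genes. Most of the list lay above the median of all genes by mean signal, where 25.8% of all genes passed. Groups did not overlap for 53.7% of the list, against 51.6% of all genes above that median. The 4 largest differences of the list were falls. Vav3, which acts downstream of Eph receptors, read 7.98, 7.93 and 8.15 in the Klf5-deleted arrays, against 9.26, 9.16 and 9.24 in the controls (log2 difference -1.20, SE 0.07, adjusted p = 6.08e-05), or 43.5% of the control signal. Met, the receptor of hepatocyte growth factor and a partner of plexin-B proteins, fell to 54.1% (log2 difference -0.89, SE 0.07, adjusted p = 0.000274). Ngef, which encodes ephexin, a binding partner of Eph receptors, fell to 56.6% (log2 difference -0.82, SE 0.11, adjusted p = 0.00227). Mical2, of the family of actin-oxidising enzymes downstream of plexins, fell to 55.2% (log2 difference -0.86, SE 0.14, adjusted p = 0.00619).

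The rises were led by Kalrn (log2 difference 0.42, SE 0.04, adjusted p = 0.000676), and Dpysl4, of the collapsin response mediators that act downstream of semaphorins (log2 difference 0.48, SE 0.05, adjusted p = 0.000942). Srgap1, whose product binds Robo1, rose by 0.33 (SE 0.05), and Limk1, the kinase that inactivates cofilin, by 0.26 (SE 0.04). The count of 22 genes called in this list became 14 without Klf5-deleted replicate 1, 12 without Klf5-deleted replicate 3, 12 without control replicate 1 and 9 without control replicate 2. In a list of 29 genes of other guidance families, 10 rose and 0 fell, with a median of 0.16. That is 34.5% called, against 17.5% of all genes, of which 8.95% were higher. The count of 10 became 7 without Klf5-deleted replicate 3, control replicate 1 or control replicate 2, and was 8 to 10 on leaving out any other array. The netrin receptor gene Unc5d read 8.33, 8.48 and 8.53 in the Klf5-deleted arrays, against 7.90, 7.85 and 7.95 in the controls (log2 difference 0.55, SE 0.06, adjusted p = 0.00142). Nfasc, an adhesion molecule of axons, rose by 0.32 (SE 0.04), the protease inhibitor gene Reck by 0.40 (SE 0.06) and the netrin-G1 gene Ntng1 by 0.26 (SE 0.05).

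When the male share entered the model as a covariate, limma called 0 of the 59 members (12 at an unadjusted p under 0.05) and 83 of all genes. The median SE over all genes was 2.63 times as large in that fit, since the male share runs with genotype. No difference of the 26 members changed sign. Relative to the fit on genotype alone the differences ranged from 0.195 times for Sema5a to 1.55 times for Robo1 (median 0.973), and 11 of them had an unadjusted p under 0.05. Sema3b had the smallest adjusted p of the members, 0.0937, at -0.92 (SE 0.16). The part of sex in these differences cannot be told apart from that of genotype at this number of arrays. Of the 3 X-linked members, Plxna3 rose, and Efnb1 and Plxnb3 overlapped between groups.

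**Figure D4:**
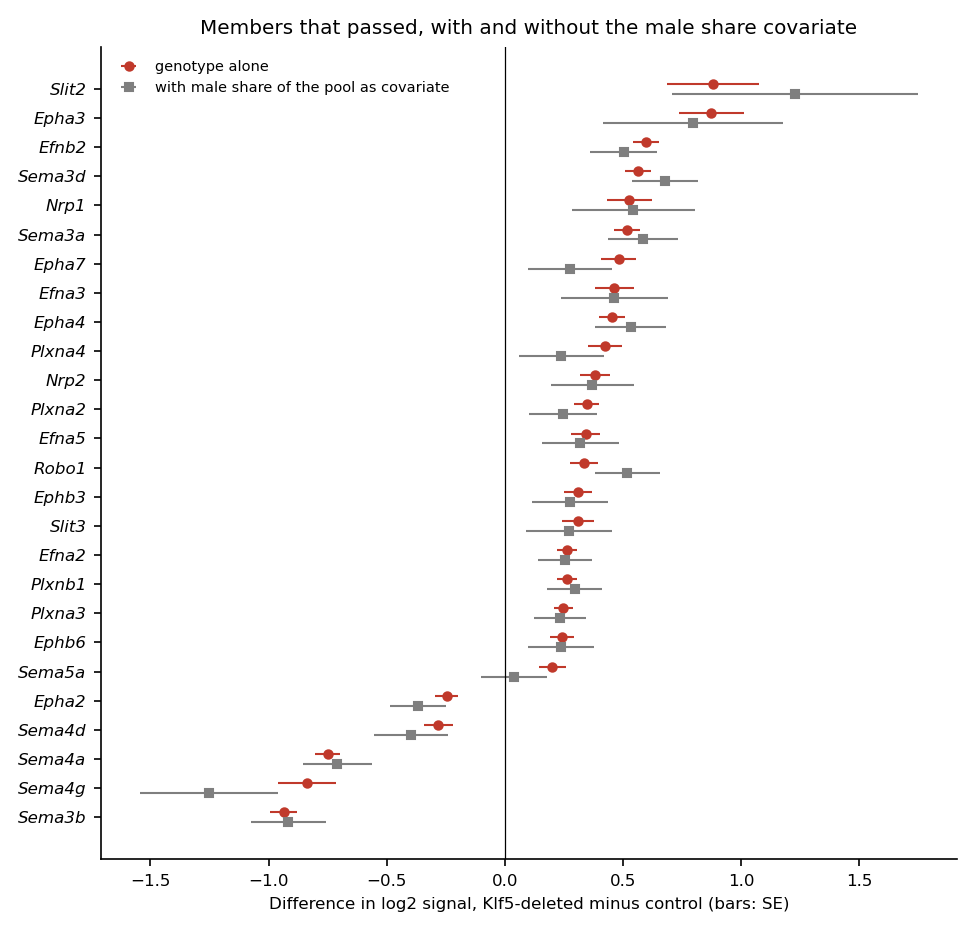
Difference in log2 signal with its SE for the 26 members that passed, fitted with genotype alone (red circles) and with the male share added as a covariate (grey squares). The signs are the same in both fits, and the bars are longer with the covariate, where 0 members passed.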

How the data were processed

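RNA was measured on Mouse Gene 1.0 ST arrays from Affymetrix, 3 per group. The authors deposited RMA values on a log2 scale, and the submitters' processing notes name Affymetrix Expression Console 1.1. RMA corrects background, aligns array distributions by quantiles and summarises probes per transcript, so a shift common to most genes is removed and folds of dim genes are understated. The authors' genome build was not given in the sources used here. Precision is limited by the number of arrays.

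Of 35557 rows, 21789 had 1 gene symbol in the platform annotation, 1621 had several and 12147 had none, and rows without exactly 1 symbol were left out. Gene IDs linked 21698 rows to current symbols in RefSeq, build GRCm38.p6. The row with the highest mean represented each of the 19938 genes. 4 members had more than 1 row, and the 2 rows of Sema6b held identical values. No filter on level was used. Groups and replicate numbers came from the sample titles.

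The difference, Klf5-deleted minus control, was fitted with lmFit and eBayes of limma 3.58.1 (R 4.3.3). P-values were adjusted by Benjamini-Hochberg over all genes, with a threshold of 0.05, and the fit was tested on simulated data. With 3 arrays against 3, an exact permutation test of a single gene cannot go below p = 0.1, so none is given. The labels do not say whether litters differed between pools, so p-values measure only how these pools vary. The male share is the mean linear signal of 3 Y-linked genes, Uty, Kdm5d and Eif2s3y, scaled between the lowest array and the Klf5-deleted mean.

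The members and gene lists were chosen with earlier results of these data known. Named were all 59 members, up to 8 genes of the signalling list and up to 4 of the other guidance list with the smallest p. Of 69 and 30 listed genes, 67 and 29 were measured. Alternatives were each array left out, a block on the replicate number, quantile normalization, median centring, filters on the lowest 25% or 50% of genes, an intensity trend with robust variance, array weights, the mean of a gene's rows, all rows tested, a threshold of 0.1, the male share as covariate, and chromosomes X and Y left out.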

Additional observations from a re-analysis of the deposited data

How the results depend on the processing

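Of the 26 members that passed, 20 (17 higher and 3 lower) passed under each of the 17 alternatives other than the male share covariate that tested them. The 6 others were Epha2, Ephb6, Sema4d, Sema5a, Slit2 and Slit3. Across the 6 fits that left out an array, 17 to 22 members passed as higher and 4 or 5 as lower, and 21 of the 26 passed in each of them. Those fits called 9 to 16 genes of the signal transduction list. With the male share as covariate the counts were 0 members higher, 0 lower, 0 genes of the signal transduction list, 0 of the other guidance families and 0 markers, with 12 members at an unadjusted p under 0.05, against 21, 5, 22, 10 and 32 without it. The signal transduction list also gave 13 genes with arrays centred on their median and 12 with all rows tested, against 22. All-gene calls numbered 3496 in the reported fit, 2000 without control replicate 2, 2008 with the replicate block, 2089 with all rows tested and 83 with the male share. Same-numbered arrays did not deviate together (correlations of deviations -0.14, -0.27 and -0.03), so the numbers were not taken as pairs. With the replicate block 18 members were higher and 4 lower, 11 genes of the signal transduction list passed, and Epha2, Ephb6, Sema5a and Slit3 were lost (adjusted p 0.0517 to 0.149). Centring moved the split of all calls to 1216 higher and 1767 lower, against 1785 and 1711, and that of the members to 20 and 5. With the lowest 50% of genes left out, 43 members were tested, 23 passed as higher and 5 as lower, and Ephb6 and Sema4a were no longer tested. No difference of a member changed sign past the threshold under the 18 alternatives. Array signals understate changes of dim members, and 16 of the 59 lay in the lower 50% of genes.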
